A study of Rattus norvegicus with 28 samples.

Results

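Transcripts of 8 neuropeptide precursors of cerebral cortex were examined in rat prefrontal cortex the day after psilocybin, ketanserin or both. The members are Penk, Pdyn, Tac1, Crh, Adcyap1, Cartpt, Nts and Cort, taken as the entries of the count table with exactly those gene names. Of the 36387 genes and transcripts in that table, 7 carried such a name, and all 7 were among the 17404 that passed the filter on low counts. Cort, the precursor of the somatostatin relative cortistatin, was not analysed here.

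A neuropeptide precursor is made as a long protein, routed into dense-core vesicles and clipped by convertases into short peptides that act on G protein-coupled receptors. In cortex these genes are transcribed in subsets of neurons, many of them GABA interneurons, and several of them are known to respond to neuronal activity. Psilocybin is the prodrug of psilocin, which activates several serotonin receptors. Ketanserin is an antagonist best known for its action at the 2A subtype.

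The animals were adult male Sprague-Dawley rats, 8 weeks old on arrival, and each of the 28 libraries came from prefrontal cortex collected 24 h after a pair of intraperitoneal injections. There were 4 biological replicates in each of 7 groups. The groups were psilocybin alone at 1 or 3 mg/kg (after the ketanserin vehicle, 5% Tween-80), ketanserin alone at 1 or 3 mg/kg (followed by saline), the combination at 1 mg/kg of each or 3 mg/kg of each, and vehicle (Tween-80 followed by saline). Every treated group was compared with the same 4 vehicle libraries, so those 6 comparisons are not independent of each other.

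The total count was 12783067 to 18538414 per library. Cortical markers were abundant, with at least 32603 counts of Slc17a7, the vesicular glutamate transporter of cortical excitatory neurons, in every library. Of 9 hypothalamic markers, Pmch and Sim1 were at a count of 0 in all 28 libraries, while Pomc reached 80 counts, Agrp 31, Ghrh 18 and Avp 17. The striatal markers Drd1 and Drd2 had 29 to 136 and 33 to 191 counts. Replicate 4 of the combination at 3 mg/kg stood apart, with 19602 genes at a count of 0 against 15344 to 16657 in the other libraries. It also had the lowest total count, and unnamed transcripts held 4.46% of its counts against 1.99 to 2.53% in the other libraries. In bulk tissue, fewer cells of a type and less RNA per cell cannot be told apart.

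No member changed by the test in any comparison. The lowest adjusted p of any member was 0.693 in edgeR's quasi-likelihood test with Benjamini-Hochberg adjustment over all genes tested, and 0.682 in DESeq2. The 15 comparisons set each treated group against vehicle, the combination against each drug alone, the higher against the lower dose, and the combination against the sum of the drugs. edgeR called 0 of the 7 members in each of them and in the test of any difference among the 7 groups. The share of all 17404 genes called was 0% in 14 of the 15, 0.00575% for the combination at 3 mg/kg against vehicle, and 0.0172% for any difference among groups. Of the 105 log2 fold changes of members, 10 had an unadjusted p under 0.05, and 7 of those 10 belonged to Nts. DESeq2 called 0 members, with 0.0862% of all genes called for any difference among groups and at most 0.0345% in a single comparison (psilocybin at 3 against 1 mg/kg), followed by 0.0287% for the combination against ketanserin alone at 3 mg/kg. In 8 comparisons 0 of the 7 members had an unadjusted edgeR p under 0.05. The share of all genes was there 1.66% for psilocybin and 2.07% for ketanserin at 1 mg/kg and 3.13% for the combination at 3 mg/kg, each against vehicle. It was 2.92% and 3.41% for the combination against ketanserin alone at 1 and 3 mg/kg, 1.64% for ketanserin and 3.31% for the combination at 3 against 1 mg/kg, and 4.09% for the interaction at 1 mg/kg (the effect of the combination less the sum of the effects of each drug, all against vehicle). The p-values of these tests weigh a difference between groups against the spread between libraries of a group in these 28 samples.

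On the FPKM scale, which divides counts by transcript length and lets genes be compared, Penk was the most abundant member at 42.9 ± 9.62 (SD over 28 libraries). Tac1 followed at 21.5 ± 4.81 FPKM, Adcyap1 at 17.4 ± 2.57, Pdyn at 11 ± 1.54 and Crh at 9.71 ± 2.07. Cartpt at 2.79 ± 3.57 FPKM and Nts at 1.53 ± 1.13 FPKM were the lowest. Neighbours in this order overlapped in their ranges over libraries, for example 28.2 to 70.3 FPKM for Penk and 11.8 to 30.1 FPKM for Tac1. The spread between libraries of a group, as an SD of log2 CPM (CPM is the count as a share of the library, scaled by TMM factors), was 0.19 for Pdyn, 0.23 for Adcyap1, 0.28 for Penk, 0.32 for Crh and 0.37 for Tac1. It was 0.79 for Nts and 1.25 for Cartpt, whose spread exceeded that of 98.5% of the genes tested. In every member, each of the 6 neighbouring pairs of groups in the order of mean CPM overlapped in range and differed by less than the larger SD of the pair.

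**Figure D1:**
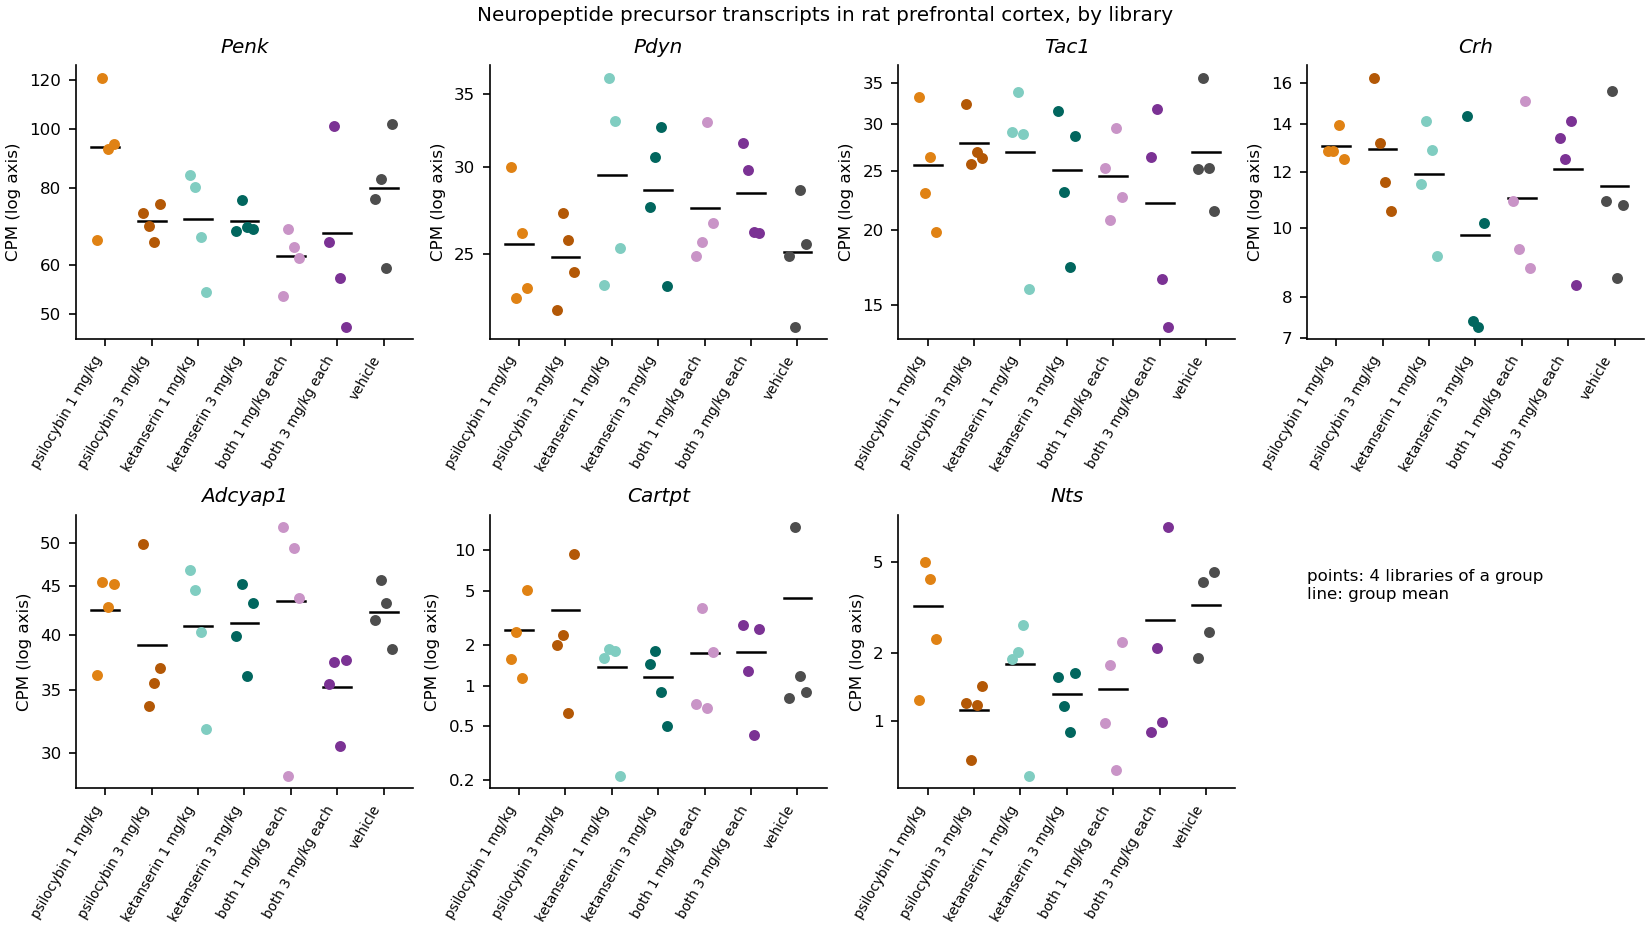
CPM of the 7 measured precursors on log axes in each library (points) and group mean (lines), with vehicle at the right of each panel. The 4 Nts values after psilocybin at 3 mg/kg lay between 0.677 and 1.43 CPM, below the 4 vehicle values.

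Penk and Pdyn encode the opioid precursors. Proenkephalin, from Penk (ENSRNOG00000008943, chr5:17056419-17061837 on rn6, minus strand), yields enkephalins that act mainly on delta and mu opioid receptors. After psilocybin at 1 mg/kg, Penk was at 65.9, 121, 92.6 and 94.3 CPM, and after 3 mg/kg at 73.0, 69.6, 65.4 and 75.5 CPM. After ketanserin it was at 84.2, 80.5, 66.6 and 54.2 CPM at 1 mg/kg and at 68.1, 76.6, 69.2 and 68.7 CPM at 3 mg/kg. The combination gave 53.4, 68.8, 64.1 and 61.7 CPM at 1 mg/kg and 65.5, 101, 57.1 and 47.6 CPM at 3 mg/kg, against 77.0, 82.8, 59.4 and 102 CPM in vehicle. The highest group mean was that of psilocybin at 1 mg/kg and the lowest that of the combination at 1 mg/kg, and every treated group overlapped with vehicle.

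The widest Penk difference was between these 2 groups. Penk averaged 62.0 ± 6.45 CPM after the combination at 1 mg/kg and 93.5 ± 22.5 CPM after psilocybin alone at 1 mg/kg (SD, n = 4 each). This was a log2 fold change of -0.59 (SE 0.19) with a 95% interval of -0.98 to -0.20, an unadjusted edgeR p of 0.00456 and an adjusted p of 0.894. At this dose 2 of the 7 members, Penk and Nts, had an unadjusted p under 0.05, against 4.13% of all genes. At 3 mg/kg the same comparison gave -0.06 (95% interval -0.46 to 0.33) for Penk. Psilocybin at 3 against 1 mg/kg gave -0.40 (SE 0.19), with an adjusted edgeR p of 1.00. Without replicate 2 of psilocybin at 1 mg/kg, the highest library at 121 CPM, that value was -0.25 and the combination against psilocybin alone at 1 mg/kg was -0.43.

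Penk, Crh, Tac1 and Adcyap1 all moved between animals with the mitochondrial share of the counts, which was 6.98 to 11.6% over the libraries. For Penk, over deviations from the group mean in 28 libraries, Pearson's r was 0.65 (permutation p = 0.0030, 0.014 adjusted over 14 relations of members with library measures) and Spearman's rho was 0.54 (permutation p = 0.0105, adjusted 0.022). It stayed at 0.65 without the 2 libraries farthest from the median of that share and was 0.62 without replicate 4 of the combination at 3 mg/kg. The same r was 0.55 for Crh (permutation p = 0.0026, adjusted 0.014; rho 0.62, permutation p = 0.00083, adjusted 0.0116), and 0.57 without the 2 farthest libraries. For Tac1 it was 0.49 (permutation p = 0.0136, adjusted 0.0287; rho 0.45, permutation p = 0.0311, adjusted 0.0544), and 0.57 without the 2 farthest. For Adcyap1 it was 0.43 (permutation p = 0.0144, adjusted 0.0287; rho 0.49, permutation p = 0.0110, adjusted 0.022), and 0.31 without the 2 farthest. The same 4 members had r of -0.52 for Penk, -0.52 for Crh, -0.53 for Tac1 and -0.48 for Adcyap1 with the TMM factor, by which CPM is divided, with adjusted permutation p of 0.014 to 0.0322. Without the 2 libraries farthest from the median of that factor, r was -0.64 for Penk, -0.37 for Crh, -0.48 for Tac1 and -0.35 for Adcyap1. The part of the division itself in these r was not tested. The mitochondrial share was 7.46 to 9.09% in the combination at 1 mg/kg and 8.03 to 11.6% after psilocybin alone at 1 mg/kg. Summed striatal markers were at 296 to 327 CPM in the combination at 1 mg/kg and 310 to 428 CPM after psilocybin alone at 1 mg/kg. Replicate 2 of that psilocybin group, the highest library in Penk, ranked 1st of 28 in them. Over 28 libraries Penk had r of 0.29 with striatal markers (permutation p = 0.311, adjusted 0.675; rho 0.28, permutation p = 0.202, adjusted 0.617). The parts of the mitochondrial share and of striatal markers in the Penk difference were not tested.

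Pdyn (ENSRNOG00000026036, chr3:122194329-122206671 on rn6, minus strand) encodes prodynorphin, the source of dynorphins, which act mainly on the kappa opioid receptor. It was the steadiest member, with library values of 21.5 to 36.2 CPM. Group means were 25.5 ± 3.31 and 24.8 ± 2.16 CPM with psilocybin at 1 and 3 mg/kg, 29.5 ± 6.09 and 28.6 ± 4.03 CPM with ketanserin, 27.6 ± 3.70 and 28.4 ± 2.71 CPM with both drugs, and 25.1 ± 2.92 CPM in vehicle (SD, n = 4 each). Means were thus higher in the 4 groups that had ketanserin than in the 3 that had none, but all treated groups overlapped with vehicle. This split was not tested, and how many of all genes share it was not counted. Against vehicle, psilocybin at 1 and 3 mg/kg gave log2 fold changes of 0.02 and -0.02, ketanserin 0.23 and 0.19, and the combination 0.13 and 0.18. The 95% interval for ketanserin at 1 mg/kg was -0.06 to 0.52, and the median half-width against vehicle was 0.29 log2 units, equal to a 1.22-fold difference.

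Tac1 (ENSRNOG00000007374, chr4:33638709-33646819 on rn6, plus strand) encodes the precursor of the tachykinins substance P and neurokinin A. It had 13.8 to 35.8 CPM over the libraries. Group means were 25.6 ± 5.73 and 27.8 ± 3.09 CPM after psilocybin at 1 and 3 mg/kg, 26.9 ± 7.68 and 25.1 ± 6.25 CPM after ketanserin, 24.6 ± 3.79 and 22.1 ± 8.37 CPM after the combination, and 26.9 ± 6.16 CPM in vehicle (SD, n = 4 each). Every treated group overlapped with vehicle. The log2 fold change furthest from 0 against vehicle was -0.28 (SE 0.24) for the combination at 3 mg/kg, where replicate 4 had the lowest value of all, 13.8 CPM. Without that library it was -0.11. The interval half-width was 0.50 log2 units, a 1.41-fold difference.

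Crh and Adcyap1 encode peptides known from stress responses. Crh (ENSRNOG00000012703, chr2:104459999-104461863 on rn6, minus strand) encodes corticotropin-releasing hormone, which in cortex is made mostly by interneurons. Its group means were 13.0 ± 0.63 and 12.9 ± 2.49 CPM after psilocybin at 1 and 3 mg/kg, 11.9 ± 2.14 and 9.78 ± 3.32 CPM after ketanserin, 11 ± 2.86 and 12.1 ± 2.61 CPM after the combination, and 11.4 ± 2.98 CPM in vehicle (SD, n = 4 each). The groups overlapped throughout. Log2 fold changes against vehicle lay between -0.22 after ketanserin at 3 mg/kg and 0.19 after psilocybin at 1 mg/kg, with SE 0.23 in each.

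Adcyap1 (ENSRNOG00000049882, chr9:121706979-121725716 on rn6, minus strand) encodes PACAP, a peptide of the secretin family that raises cAMP through the receptor Adcyap1r1. After the combination at 3 mg/kg it was at 35.5, 37.4, 30.5 and 37.6 CPM, against 41.5, 45.7, 43.2 and 38.6 CPM in vehicle. All 4 combination values lay below all 4 vehicle values, as they did for 0.741% of the genes tested. The log2 fold change was -0.26 (95% interval -0.58 to 0.05), with an unadjusted edgeR p of 0.101 and an adjusted p of 0.999, and it was -0.29 without replicate 4 of the combination. The other treated groups overlapped with vehicle, with log2 fold changes of 0.01 and -0.12 after psilocybin, -0.05 and -0.04 after ketanserin, and 0.04 after the combination at 1 mg/kg.

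**Figure D2:**
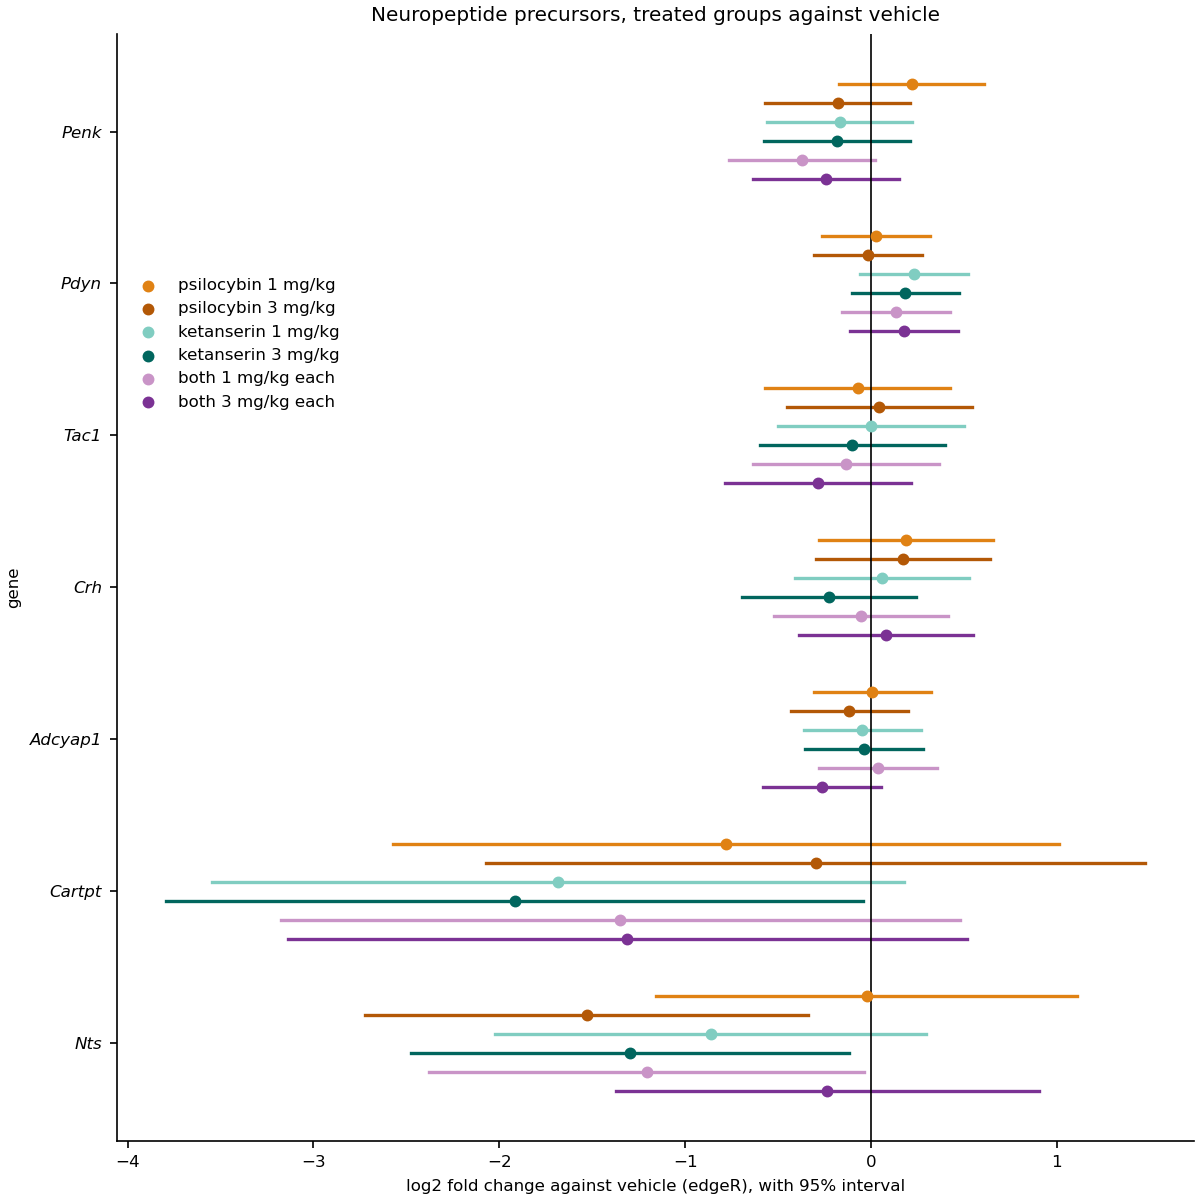
Log2 fold changes of each precursor in the 6 treated groups against the same vehicle libraries (points, edgeR), with 95% intervals (lines). Intervals were narrow for Pdyn and Adcyap1 and wide for Nts and Cartpt, for which the median half-width was 1.16 and 1.83 log2 units.

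Nts and Cartpt encode neurotensin and CART, and their promoters are shown because they are the members that spread most between animals. The 250 bases before each start come from RefSeq promoters on GRCr8, which held 5 of the 7 measured members. Both are printed 5′ to 3′ on the minus strand, Nts at chr7:39460889-39461138 and Cartpt at chr2:32991236-32991485. Capitals mark, on either strand, an AP-1 site (TGANTCA) and a cAMP response element core (TGACG) in Nts and a full cAMP response element (TGACGTCA) in Cartpt.
Nts: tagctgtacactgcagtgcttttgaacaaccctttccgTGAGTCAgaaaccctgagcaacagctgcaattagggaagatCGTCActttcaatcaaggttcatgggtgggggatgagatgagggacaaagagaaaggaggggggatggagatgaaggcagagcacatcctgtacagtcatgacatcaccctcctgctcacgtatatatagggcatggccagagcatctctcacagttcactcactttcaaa
Cartpt: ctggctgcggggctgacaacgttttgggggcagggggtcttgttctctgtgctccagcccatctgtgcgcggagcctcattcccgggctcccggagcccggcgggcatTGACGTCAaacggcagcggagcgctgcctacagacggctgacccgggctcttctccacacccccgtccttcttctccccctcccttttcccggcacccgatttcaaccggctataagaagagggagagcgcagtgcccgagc
The AP-1 match of Nts began 212 bases and its response element core 171 bases before the start. Of 33469 promoters of this length, 6.34% held that AP-1 site and 18.2% the core. The full element of Cartpt began 142 bases before the start, and 1.59% of promoters held one. It overlaps a core match on each strand. Among the other promoters searched, Tac1 held the core once and Pdyn and Adcyap1 did not hold it. A match is a description of letters.

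Nts (ENSRNOG00000004179, chr7:44111151-44121130 on rn6, minus strand) encodes neurotensin, a peptide known for its modulation of dopamine signalling through the receptors Ntsr1 and Ntsr2. It was a rare transcript, with 8 to 94 counts per library, and counting error alone was 19.4% at the median count. Psilocybin gave 1.24, 5.01, 4.24 and 2.31 CPM at 1 mg/kg and 1.21, 0.677, 1.18 and 1.43 CPM at 3 mg/kg. Ketanserin gave 1.87, 2.01, 2.66 and 0.574 CPM at 1 mg/kg and 1.57, 1.16, 0.898 and 1.64 CPM at 3 mg/kg. The values at 3 mg/kg of either drug alone all lay below the lowest vehicle value of 1.89 CPM. The combination gave 0.979, 1.76, 0.607 and 2.23 CPM at 1 mg/kg and 0.896, 2.10, 0.993 and 7.17 CPM at 3 mg/kg, against 1.89, 4.09, 2.48 and 4.53 CPM in vehicle. Psilocybin at 1 mg/kg, ketanserin at 1 mg/kg and both combinations overlapped with vehicle, and the highest value of all was that of the library that stood apart.

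Against vehicle, psilocybin at 3 mg/kg gave a log2 fold change of Nts of -1.53 (SE 0.58), with a 95% interval of -2.72 to -0.34. Ketanserin at 3 mg/kg gave -1.3 (SE 0.57), with a 95% interval of -2.47 to -0.12. The unadjusted edgeR p was 0.0139 and 0.0320, with adjusted p of 0.997 and 1.00. Groups without overlap in this direction were seen for 1.17% of genes in the psilocybin comparison and 1.03% in the ketanserin one, and an unadjusted p under 0.05 for 3.01% and 2%. The combination at 1 mg/kg gave -1.21 (SE 0.57), psilocybin at 1 mg/kg -0.02 (SE 0.55) and ketanserin at 1 mg/kg -0.86 (SE 0.56). For the combination at 1 mg/kg, Nts was the 1 member of 7 with an unadjusted p under 0.05, against 1.3% of all genes. The combination at 3 mg/kg gave -0.24 (SE 0.55) with all libraries and -1.29 without its replicate 4. Neither drug's estimate at 3 mg/kg came within 1 log2 unit of 0 when any single library was left out, at -1.72 to -1.33 for psilocybin and -1.48 to -1.09 for ketanserin. Without vehicle replicate 2 the estimate was -1.40 for psilocybin, with an unadjusted edgeR p of 0.0334. For ketanserin it was then -1.15, with an unadjusted edgeR p of 0.0713, no longer under 0.05.

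Some dose and combination comparisons of Nts rested in part on that library. Psilocybin at 3 against 1 mg/kg gave -1.51 (SE 0.58, adjusted edgeR p 1.00), a comparison in which it had no part and in which Nts and Penk were the 2 members of 7 with an unadjusted p under 0.05, against 3.24% of all genes. The combination against psilocybin alone gave -1.18 (SE 0.57) at 1 mg/kg and 1.3 (SE 0.58, adjusted edgeR p 0.693) at 3 mg/kg, and the value at 3 mg/kg was 0.24 without replicate 4 of the combination. When that library was left out, the combination against ketanserin alone at 3 mg/kg went from 1.06 to 0.0019. The combination at 3 against 1 mg/kg went from 0.97 to -0.08. The interaction at 3 mg/kg was 2.59 (SE 0.81, unadjusted edgeR p 0.00382, adjusted p 0.993) and 1.53 without that library. Shares of all genes with an unadjusted p under 0.05 were 5.74% for the combination against psilocybin alone at 3 mg/kg and 3.2% for the interaction. In the test of any difference among the 7 groups, Nts was the 1 member with an unadjusted p under 0.05 (0.0446, adjusted p 1.00), against 2.22% of all genes.

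Oligodendrocyte markers were also low after psilocybin at 3 mg/kg, where 10 of 10 lay below vehicle with a median log2 difference of -0.50. Their summed level was 2380 to 5845 CPM after psilocybin at 3 mg/kg and 2950 to 8261 CPM in vehicle. After ketanserin at 3 mg/kg, 8 of 10 were lower than in vehicle (median log2 difference -0.05), and their summed level was 3674 to 5330 CPM. At 1 mg/kg, 10 of 10 were lower after ketanserin (median -0.28) and 10 of 10 were higher after psilocybin (median 0.26). After the combination, 4 of 10 were lower at 1 mg/kg (median 0.03) and 8 of 10 at 3 mg/kg (median -0.23). Over 28 libraries Nts had r of 0.48 with these markers (permutation p = 0.0122, adjusted 0.123; rho 0.55, permutation p = 0.0075, adjusted 0.124), with 0.41 without the 2 farthest libraries and 0.57 without replicate 4 of the combination at 3 mg/kg. Their part in the Nts differences was not tested.

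In the library that stood apart, where Nts was highest, the summed hypothalamic markers were at 1.3 CPM and the septal markers at 37.9 CPM, both the lowest of the 28 libraries. Its summed olfactory bulb markers, at 52.2 CPM, and astrocyte markers, at 1702 CPM, were the highest, and its GABA neuron markers the lowest, at 1043 CPM. Choroid plexus markers ranked 5th, at 17.9 CPM, and microglia markers 27th, at 205.5 CPM. Their part in its Nts value was not tested.

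Cartpt (ENSRNOG00000017712, chr2:30125249-30127269 on rn6, minus strand) encodes CART, a peptide first known for its induction by psychostimulants in striatum. Psilocybin gave 1.57, 2.47, 1.14 and 5.05 CPM at 1 mg/kg and 1.99, 2.37, 0.625 and 9.39 CPM at 3 mg/kg. Ketanserin gave 1.59, 1.86, 1.80 and 0.215 CPM at 1 mg/kg and 1.43, 1.80, 0.898 and 0.504 CPM at 3 mg/kg. The combination gave 0.734, 3.72, 0.683 and 1.77 CPM at 1 mg/kg and 2.79, 1.28, 0.434 and 2.59 CPM at 3 mg/kg, against 0.812, 14.8, 1.18 and 0.892 CPM in vehicle. Single libraries carried the high values, with 224 counts in vehicle replicate 2 and 3 counts in the lowest library, ketanserin at 1 mg/kg replicate 4, and all groups overlapped.

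The direction of every Cartpt comparison with vehicle depended on vehicle replicate 2. With all libraries, psilocybin at 1 and 3 mg/kg gave log2 fold changes of -0.78 and -0.30, ketanserin -1.68 and -1.92, and the combination -1.35 and -1.31. Without that library psilocybin gave 1.42 and 1.90, ketanserin 0.53 and 0.29, and the combination 0.85 and 0.88. Ketanserin at 3 mg/kg had an unadjusted edgeR p of 0.0456 and an adjusted p of 1.00 for Cartpt, which with Nts made up the 2 members of 7 with an unadjusted p under 0.05, against 2% of all genes. The interactions of 1.12 at 1 mg/kg and 0.91 at 3 mg/kg also turned, to -1.10 and -1.30. Vehicle replicate 2 ranked first of 28 in summed blood transcripts, at 2436 CPM, and 2nd in excitatory neuron and microglia markers. It ranked 3rd in GABA neuron and oligodendrocyte markers and 4th in striatal, septal and hypothalamic markers, with 389.8 CPM for the striatal list. It ranked 25th in choroid plexus markers and 26th in claustrum and endopiriform markers. Their part in its Cartpt value was not tested.

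**Figure D3:**
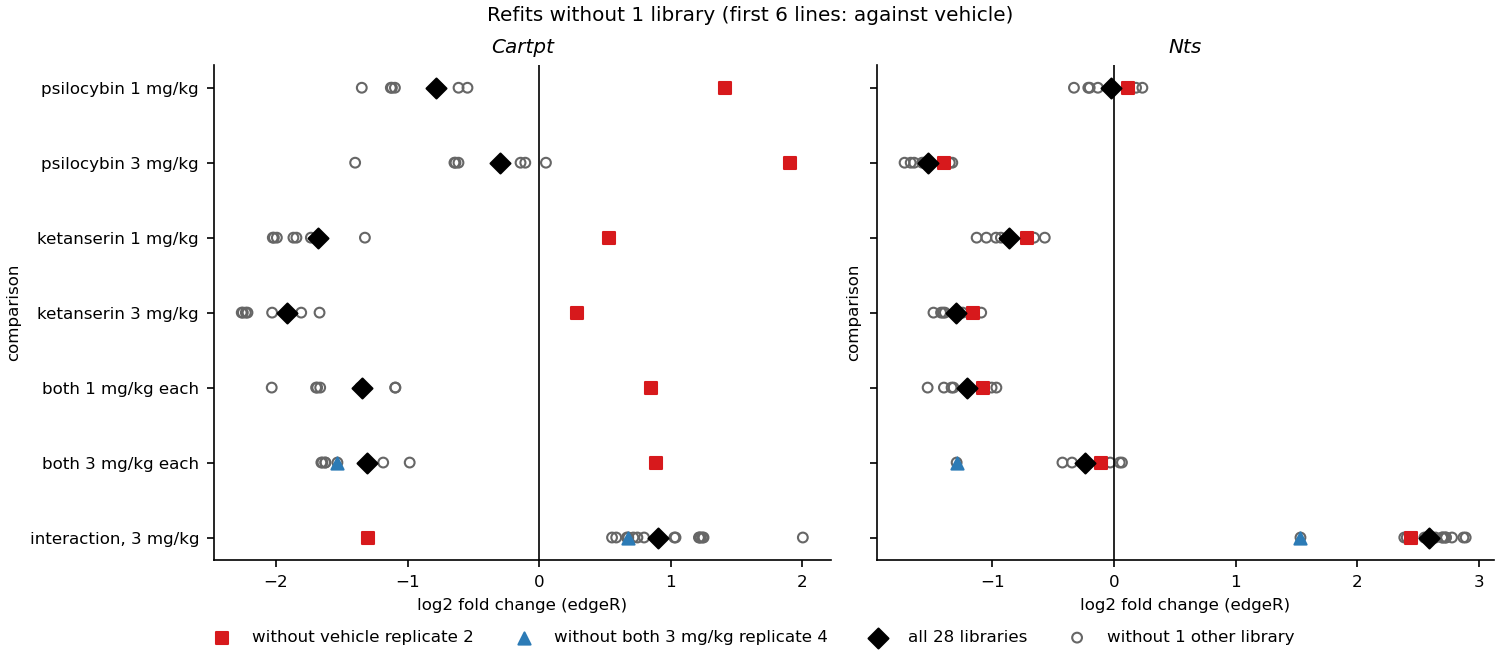
Log2 fold changes of Cartpt and Nts with all 28 libraries (diamonds) and with 1 library left out (other symbols), against vehicle and for the interaction at 3 mg/kg. Cartpt changed sign without vehicle replicate 2, and the Nts value for the combination at 3 mg/kg was -0.24 with all libraries and -1.29 without its replicate 4.

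Tac1 and Crh varied together from animal to animal. With group means removed, Pearson's r over 28 libraries was 0.69 (permutation p = 0.0002, 0.0046 adjusted over 21 pairs of members) and Spearman's rho was 0.69 (permutation p = 0.0003, adjusted 0.0059). It was 0.67 without the 2 libraries farthest from the median of Crh and 0.65 without replicate 4 of the combination at 3 mg/kg. The other 20 pairs had adjusted permutation p of at least 0.174. Cartpt and Nts had r of 0.41 (permutation p = 0.0436, adjusted 0.305; rho 0.40, permutation p = 0.0571, adjusted 0.378), and r was 0.40 without its 2 farthest libraries. Both Crh and Tac1 also moved with the mitochondrial share (r 0.55 and 0.49) and the TMM factor (r -0.52 and -0.53), as given above with their tests. The part of these library measures in the tie of Tac1 to Crh was not tested.

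Cell type markers moved with the same members. Crh had r of -0.75 with the mean of 6 astrocyte markers (permutation p = 0.00011, adjusted 0.010 over 91 relations of members with 13 marker lists) and rho of -0.73 (permutation p = 0.00013, adjusted 0.0118), with r of -0.67 without the 2 farthest libraries. Tac1 had r of -0.66 with astrocyte markers (permutation p = 0.0013, adjusted 0.0385; rho -0.56, permutation p = 0.0084, adjusted 0.124) and -0.53 without the 2 farthest. With 8 microglia markers Tac1 had r of 0.69 (permutation p = 0.0007, adjusted 0.0328; rho 0.63, permutation p = 0.0019, adjusted 0.0860) and 0.60 without the 2 farthest. These were the 3 of 91 relations with an adjusted p under 0.05 for r, and the first was the 1 with an adjusted p under 0.05 for rho. The summed astrocyte markers ranged from 1176 to 1632 CPM after psilocybin at 1 mg/kg, 1327 to 1427 CPM after psilocybin at 3 mg/kg, 1207 to 1533 and 1199 to 1652 CPM after ketanserin, 1245 to 1455 and 1281 to 1702 CPM after the combination, and 1251 to 1538 CPM in vehicle. All groups overlapped in them, and their part in the tie of Crh to Tac1 was not tested.

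**Figure D4:**
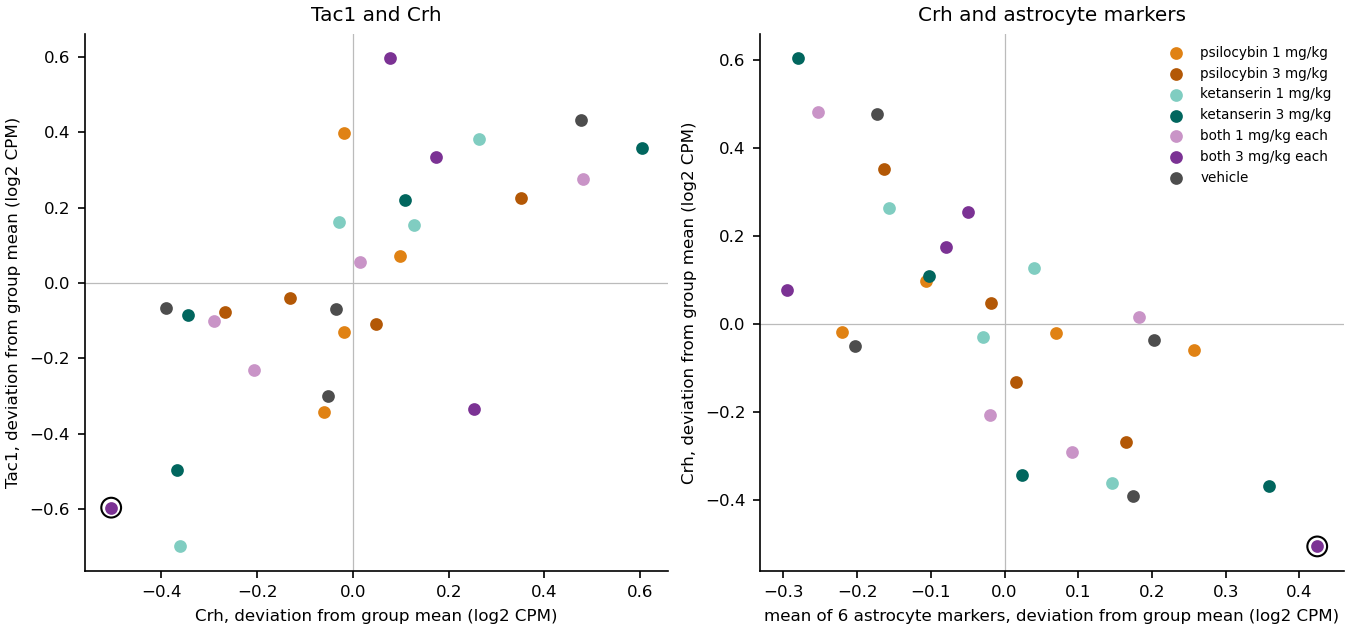
Deviations from the group mean (log2 CPM) in 28 libraries, of Tac1 against Crh at the left and of Crh against the mean of 6 astrocyte markers at the right. Points are coloured by group and the circle marks replicate 4 of the combination at 3 mg/kg; r was 0.69 at the left and -0.75 at the right.

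Genes with the most similar deviations were sought among 13864 annotated genes whose log2 CPM averaged 0 or more, by Pearson's r over 28 libraries, as a description. For Tac1 these included Crym (0.91), which binds thyroid hormone, and Cpne6 (0.89), a neuronal calcium-binding protein. For Crh they were Sts (0.86), the steroid sulfatase, Sar1b (0.84), a GTPase of vesicle budding, and Inha (0.84), the inhibin alpha subunit. For Penk they were Tnk1 (0.80), Nfkbil1 (0.79) and Dnajb13 (0.79), and for Pdyn they were Apln (0.75), the precursor of the peptide apelin, Ttc4 (0.66) and Tspan5 (0.65). For Adcyap1 they were Gpd2 (0.76), Mas1 (0.73) and Serpina11 (0.72), and for Cartpt they were Mapre1 (0.70), Cabp7 (0.69) and Spata24 (0.66). For Nts they were Slc18a2 (0.71), the vesicular monoamine transporter, Nkd1 (0.71) and AC128212.1 (0.71). For the last 2, r was 0.58 and 0.56 without replicate 4 of the combination at 3 mg/kg.

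The receptors of these peptides did not change by the test. Of 20 receptor genes listed, 16 were tested and edgeR called 0 in every comparison, as did DESeq2. In the test of any difference among the groups, 1 of the 16 had an unadjusted p under 0.05, beside 2.22% of all genes. That was Tacr1, the substance P receptor, at 1.25 ± 0.449 and 0.592 ± 0.351 CPM after psilocybin at 1 and 3 mg/kg, 0.645 ± 0.113 and 0.925 ± 0.363 CPM after ketanserin, 0.789 ± 0.335 and 1.57 ± 1.45 CPM after the combination, and 0.262 ± 0.112 CPM in vehicle (SD, n = 4 each). It had only 2 to 49 counts per library, with an unadjusted edgeR p of 0.00680 and an adjusted p of 1.00. The somatostatin receptor Sstr4 averaged 5.38 to 10.3 CPM and the neurotensin receptor Ntsr1 1.82 to 4.34 CPM over the groups, with unadjusted edgeR p of 0.0653 and 0.158. The opioid receptor genes Oprm1 and Oprk1, with at most 21 and 12 counts, did not pass the filter.

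Enzymes and vesicle proteins that make, store or remove peptides were tested for 25 of 26 genes listed, and 0 were called by edgeR or DESeq2. Cadps2, which primes dense-core vesicles for release, had the smallest unadjusted edgeR p (0.0140, adjusted p 1.00). It was at 82.2 ± 12 and 57.9 ± 2.79 CPM after psilocybin at 1 and 3 mg/kg, 72.9 to 78.5 CPM in the means of the other treated groups and 71.6 ± 6.85 CPM in vehicle. Pcsk1n, an inhibitor of the convertase Pcsk1, and Ece1, a peptide-degrading metalloprotease, came next, with unadjusted edgeR p of 0.101 and 0.120. Pcsk1n had only 2 to 172 counts per library, and whether annotation or strand setting bears on that was not tested. The median log2 fold change of the 25 was -0.05 for psilocybin at 3 mg/kg and -0.08 for the combination at 3 mg/kg against vehicle, beside -0.01 and -0.02 over all genes tested. With all libraries 17 of the 25 were lower after the combination at 3 mg/kg than in vehicle, beside 9320 of 17404 genes. When its replicate 4 was left out 13 of 25 were, with a median of -0.01 beside -0.01 over all genes. Against ketanserin alone at 3 mg/kg, 19 of 25 were lower, beside 8363 of 17404 genes, and 17 of 25 without that replicate. There 2 of the 25 had an unadjusted edgeR p under 0.05 with all libraries, beside 3.41% of all genes. Against psilocybin alone at 3 mg/kg, 13 of 25 were lower with all libraries and 14 of 25 without that replicate.

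Among 18 other neuropeptide precursors listed, 13 were tested and 0 were called by edgeR or DESeq2. The 3 with the smallest p for any difference were Chgb, a granin of dense-core vesicles, Nppc, the precursor of C-type natriuretic peptide, and Vip, an interneuron peptide, with unadjusted edgeR p of 0.0593, 0.227 and 0.264. For the combination against psilocybin alone at 3 mg/kg, 12 of the 13 had a log2 fold change below 0, beside 8971 of all 17404 genes. The median was -0.33 beside -0.01 over all genes, and 2 of the 13 had an unadjusted edgeR p under 0.05, beside 5.74% of all genes. Vip averaged 45 ± 10.01 CPM after the combination and 56.8 ± 8.80 CPM after psilocybin alone, and Nppc 9.53 ± 2.09 CPM after the combination and 15 ± 5.37 CPM after psilocybin alone. Without replicate 4 of the combination, 11 of 14 tested were below 0, the median was -0.13 and 1 had an unadjusted p under 0.05. With all libraries 5 of the 7 members were below 0 in this comparison, with a median of -0.09, and without that library 3 of 7 were, with a median of 0.05. That library has no part at 1 mg/kg. There the combination against psilocybin alone had 12 of the 13 other precursors below 0, beside 8403 of 17404 genes. The median was -0.15 beside 0.01 over all genes. Against vehicle the combination at 1 mg/kg also had 12 of the 13 below 0, beside 9244 of 17404 genes, with a median of -0.09 beside -0.01. After psilocybin at 3 mg/kg against vehicle, 9 of the 13 were above 0, with a median of 0.15 beside -0.01. Npy, a common interneuron peptide, had at most 4 counts in any library and was not tested. Whether annotation or the strand setting of the counting set that count was not tested, so it does not show absence of the transcript.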

How the data were processed

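Poly-A RNA was measured in rat prefrontal cortex, as 28 libraries made with a strand-marking dUTP kit per the labels' protocols. The authors deposited raw counts of reads per gene and FPKM values, per the file headers. The submitters' processing notes name featureCounts 1.5.0-p3, HISAT2 2.0.5, StringTie 1.3.3b and the build rn6, without roles. Whether counting used strand is not given in the sources, so reads of genes that overlap on opposite strands may be mixed. The deposited FPKM were used for levels between genes, and they point to library sizes of 0.915 to 1.07 times the count totals. The 3842 unnamed transcripts, 1.99 to 4.46% of counts, stayed in the totals and tests.

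The count test was edgeR 4.0.16 (R 4.3.3), after its filterByExpr filter and with TMM factors. A robust quasi-likelihood model with a coefficient for each of the 7 groups took in all 28 libraries, leaving 21 residual degrees of freedom. Tests were two-sided, with Benjamini-Hochberg adjustment over 17404 genes and a threshold of 0.05. Correlations used log2 CPM (prior count 2) minus the group mean, with 100000 two-sided permutations within groups. The pipeline was tested on simulated data. Alternatives were DESeq2 1.42.0, RLE factors, no filter, no robust option, fits of the compared groups alone and leaving out each library. Replicate numbers only name libraries.

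The members and lists were chosen with earlier results of these data known. All members are named. From each list every gene past the test is named, or else the 3 with the smallest p for any difference. The 3 genes most like each member are named by r, except 1 for Tac1 that is not reported here.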

Additional observations from a re-analysis of the deposited data

Results flagged for a closer look

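Single libraries stood far from the other 3 of their group in 3 cases, by Dixon's ratio of the gap to the range at its 95% critical value. Chance flags about 1 in 20 groups, and the 7 groups of each of 7 members were looked at. For Cartpt, vehicle replicate 2 was highest at 14.8 CPM, and ketanserin at 1 mg/kg replicate 4 was lowest at 0.215 CPM. That ketanserin library was also the lowest of its group in Penk, Crh, Tac1, Adcyap1 and Nts, though not in Pdyn and without a flag. For Penk, replicate 2 of ketanserin at 3 mg/kg was highest at 76.6 CPM in a group whose others lay between 68.1 and 69.2 CPM.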

How the results depend on the processing

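No paired analysis was possible because the labels number no replicates. Across every setting run, 0 members were called. With another tool, scaling, filter or fit, the 105 log2 fold changes of members moved by at most 0.03, and 7 of 525 refits changed sign. Of 952 refits without 1 library, 115 changed sign, and the lowest adjusted p was 0.231. The log2 fold change of Cartpt for psilocybin at 3 mg/kg against vehicle ranged from -1.40 to 1.90, and for ketanserin at 3 mg/kg from -2.26 to 0.29, each time turning without vehicle replicate 2. That library had 224 Cartpt counts, against 12, 19 and 13 in vehicle replicates 1, 3 and 4. Why it was so high was not tested. The refit of the 3 peptide lists without replicate 4 of the combination at 3 mg/kg was chosen after seeing the data. Over all genes, DESeq2 called 15 for any difference among groups and edgeR 3. DESeq2 called 6 for psilocybin at 3 against 1 mg/kg, 5 for the combination against ketanserin alone at 3 mg/kg and 3 for psilocybin at 1 mg/kg against vehicle, where edgeR called 0. Leaving out 1 library gave 1 to 3 for any difference and 0 to 4 for psilocybin at 3 against 1 mg/kg. Precision was lowest for Nts and Cartpt, whose 95% intervals against vehicle had a median half-width of 1.16 and 1.83 log2 units. Counting error was 19.4% and 20.6% at their median counts, and the SD within groups was 0.79 and 1.25 log2 units. The share of the interval width due to depth was not tested.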
